A study of Mus musculus with 10 samples.

Results

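The 10 blood transcriptomes of the series differed strongly in their platelet transcripts, and the difference cut across the 2 treatment groups. The libraries with an erythroid profile, defined by a deposited log2 value of Alas2 of at least 12, were separated by Alox12, the platelet-type arachidonate 12-lipoxygenase, into 5 libraries with a log2 value of at least 3 (control 3 and metformin 1, 3, 4 and 5, called platelet-rich here) and 3 libraries below 3 (control 2, control 4 and metformin 2, called platelet-poor). These 8 of 10 libraries form the split, and Alas2 and Alox12 were left out of every count of genes. Control 1 and control 5 were under the Alas2 limit and are given beside the split for reference. The split was chosen with these values known and rests on a measured gene, so every difference between the sets is a description, given with its spread and without a p-value. P-values are given only for the treatment groups of the labels, in a comparison without the split and in a second with the split as a covariate.

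All libraries came from blood of adult C57BL/6 mice, 8 months old by the legend of the blood transcriptome. The control group received PBS for 30 days and the metformin group received metformin, a biguanide used against type 2 diabetes, for 30 days, with no genetic change in either group. The methods describe several doses given by tail vein or by mouth, without saying which of them these mice had, and how blood cells were handled before TRIzol extraction is not given in the sources used here. According to the methods, for another assay of the study blood was collected by removal of the eyeball. Nothing in the labels says that each library is a separate mouse, so p-values measure the spread between these libraries.

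Platelets are small cells without a nucleus that bud from megakaryocytes in the bone marrow and carry a stock of megakaryocyte RNA into the circulation. Their surface receptors bind damaged vessel walls, collagen, von Willebrand factor, ADP and thrombin products, and signals from these receptors activate the integrin of Itga2b and Itgb3, reshape the cytoskeleton and release granules loaded with chemokines and clotting proteins. Whole blood RNA also holds reticulocyte and leukocyte transcripts, and in such bulk RNA fewer platelets and less RNA per platelet cannot be told apart.

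Promoters of 4 leading platelet genes are shown because these genes moved together between the libraries and belong to different parts of the platelet: the granule chemokines Pf4 and Ppbp, which lie next to each other on chromosome 5 with starts 3917 bases apart, and the surface receptors Gp9 and Clec1b. Each run is the 250 bases before the RefSeq start, 5′ to 3′ on the strand of the gene, from RefSeq on GRCm38.p6. Capitals mark GATAA, a motif of GATA factors, and GGAAGT, a motif of ETS factors, each searched on both strands. The 2 motifs share no letters in these windows.
Pf4, chr5:90772185-90772434, plus strand: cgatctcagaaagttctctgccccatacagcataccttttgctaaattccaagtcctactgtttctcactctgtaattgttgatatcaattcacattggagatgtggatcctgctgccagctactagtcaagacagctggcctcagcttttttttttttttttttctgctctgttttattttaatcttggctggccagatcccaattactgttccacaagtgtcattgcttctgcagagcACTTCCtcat
Ppbp, chr5:90768268-90768517, plus strand: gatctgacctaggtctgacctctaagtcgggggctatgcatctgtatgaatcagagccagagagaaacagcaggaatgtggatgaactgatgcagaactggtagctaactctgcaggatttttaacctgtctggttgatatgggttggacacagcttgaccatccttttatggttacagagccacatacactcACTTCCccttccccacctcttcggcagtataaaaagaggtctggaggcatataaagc
Gp9, chr6:87777820-87778069, plus strand: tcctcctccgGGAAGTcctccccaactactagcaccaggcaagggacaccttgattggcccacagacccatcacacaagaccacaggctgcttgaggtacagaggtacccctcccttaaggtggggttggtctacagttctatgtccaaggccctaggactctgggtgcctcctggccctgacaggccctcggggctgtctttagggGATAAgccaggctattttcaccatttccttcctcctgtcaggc
Clec1b, chr6:129397047-129397296, plus strand: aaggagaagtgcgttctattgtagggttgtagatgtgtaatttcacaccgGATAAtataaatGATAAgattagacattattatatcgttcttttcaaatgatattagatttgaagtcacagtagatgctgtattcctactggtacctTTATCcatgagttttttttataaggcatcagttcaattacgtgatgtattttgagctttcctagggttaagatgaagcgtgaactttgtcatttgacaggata
GGAAGT, written ACTTCC where it lies on the other strand, occurred once in the windows of Pf4, Ppbp and Gp9 and was not found in that of Clec1b. GATAA, or TTATC on the other strand, occurred 3 times in the window of Clec1b and once in that of Gp9. Of all 27025 promoters of this length in the RefSeq table, 23.0% held GATAA and 20% held GGAAGT, so a match is common and is a description only. Among 7100 genes measured here that had a window, 14.4% held GATAA and 23.7% held GGAAGT. Only 58 of the 74 platelet genes that separated the sets had a window, and of these 25.9% held GATAA and 20.7% GGAAGT. These shares were not tested and are a description as well.

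The values that defined the split left a wide space around its limits. Alox12 was at 6.03 in control 3, 4.80 in metformin 1, 4.26 in metformin 3, 5.22 in metformin 4 and 4.92 in metformin 5, against 1.22 in control 2, 0.41 in control 4 and 0.54 in metformin 2. The library just inside the limit was therefore metformin 3 and the library just outside was control 2. Alas2, the enzyme that starts heme synthesis in erythroid cells, was at 12.48 in all 8 libraries, which is the highest value of the table, and at 8.28 in control 5 and 1.08 in control 1. Since Alas2 stood at the shared maximum in the 8 libraries, it could not differ among them.

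Facts of the whole series bear on these comparisons. The deposited values are log2 FPKM, and their sorted values nearly coincide between libraries, with a largest SD of 0.0399 at any sorted position, so a level is relative to the other genes of its library and a rise of some genes forces others down. The depth of the libraries is unknown. The highest gene was Alas2 in 8 libraries and Myl2, a heart myosin light chain, in control 1 and control 5. Fast skeletal muscle markers divided the 8 libraries by treatment, whose mean over the list ranged from 3.85 to 4.44 with metformin and from 0.36 to 0.47 in control 2, 3 and 4, and the platelet-poor metformin 2 was at 4.44, so this list did not move with the platelet split.

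The granule chemokine Ppbp had the largest difference of all genes between the sets. Ppbp (ENSMUSG00000029372, chr5:90768518-90770063), whose protein is cut to the neutrophil-attracting chemokine CXCL7, was at 9.02 in control 3, 7.67 in metformin 1, 7.21 in metformin 3, 7.54 in metformin 4 and 8.09 in metformin 5, against 3.97 in control 2, 2.54 in control 4 and 1.01 in metformin 2. The sets did not overlap, and the mean was 7.91 ± 0.70 (SD, n = 5) in the platelet-rich and 2.51 ± 1.48 (SD, n = 3) in the platelet-poor libraries. Pf4 (ENSMUSG00000029373, chr5:90772435-90773383), which encodes platelet factor 4, a heparin-binding chemokine of the alpha granule, was at 7.97, 6.57, 6.83, 7.12 and 7.42 in control 3 and metformin 1, 3, 4 and 5, against 3.91, 1.73 and 1.07 in control 2, control 4 and metformin 2. Both chemokines thus kept the same order within the poor set, with control 2 the highest and metformin 2 the lowest. With treatment as a term, the fitted difference, platelet-rich minus platelet-poor, was 6.23 (SE 0.48) for Ppbp and 5.57 (SE 0.64) for Pf4 on the log2 scale.

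Itga2b (ENSMUSG00000034664, chr11:102453297-102470122), the alpha chain of the fibrinogen receptor, was separated as well. It was at 7.09 in control 3, 5.88 in metformin 1, 5.24 in metformin 3, 6.16 in metformin 4 and 6.53 in metformin 5, against 2.35 in control 2, 1.07 in control 4 and 1.19 in metformin 2. The fitted difference was 5.05 (SE 0.50), from a mean of 6.18 ± 0.69 (SD, n = 5) and 1.54 ± 0.71 (SD, n = 3). The 3 markers that the split did not use (Pf4, Ppbp and Itga2b) therefore sorted the libraries as Alox12 did, and the name platelet-rich describes the measured transcripts. These markers were chosen with earlier results of these data known, so their order is no independent support. Outside the split, control 1 was at 1.05 for Pf4, 0.16 for Ppbp and 0.69 for Itga2b, and control 5 at 4.83, 5.24 and 2.30, which placed control 5 close to control 2.

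**Figure D1:**
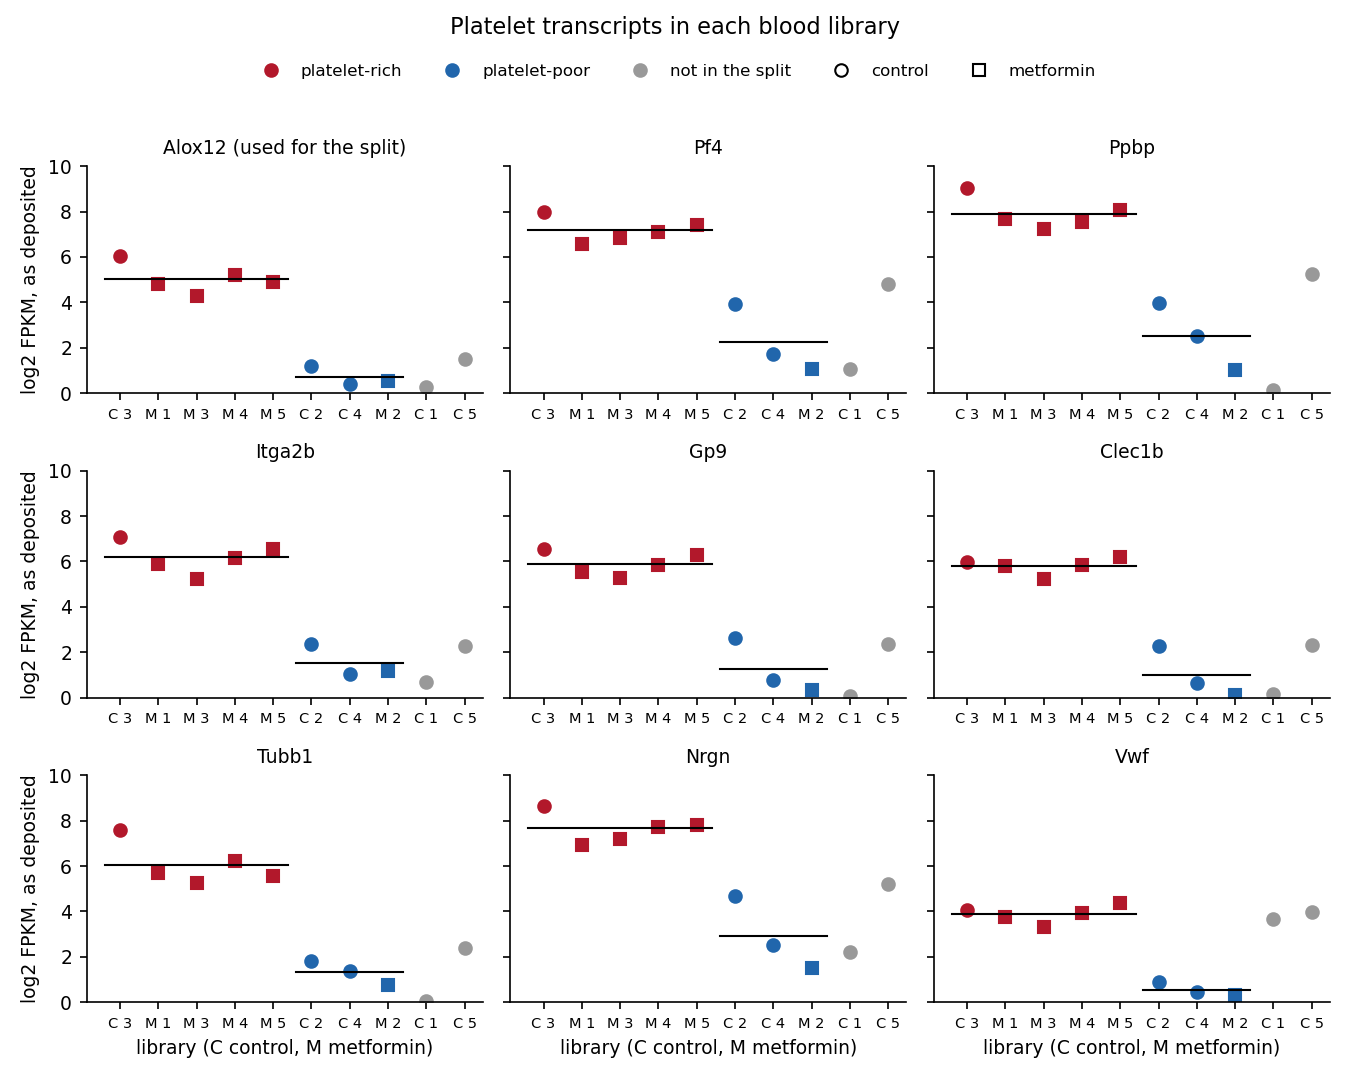
Deposited log2 FPKM (y axis) of Alox12 and 8 other platelet genes in each of the 10 libraries (x axis; C control, M metformin); colours give the set, circles control and squares metformin libraries, and the black lines are the means of the platelet-rich and platelet-poor sets. In each panel the 5 platelet-rich libraries lie above the 3 platelet-poor libraries, and control 5 lies above control 1.

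A gene was counted as separated where all libraries of one set lay above all of the other and the fitted difference was at least 1 on the log2 scale. Over all 8902 genes of the table, 281 (3.16%) were separated with higher values in the platelet-rich libraries and 14 (0.157%) with lower values. Of the 135 measured genes on 6 lists of platelet and megakaryocyte genes, 74 (54.8%) were separated higher and 0 lower, and the median difference was 1.22, beside −0.05 over all genes. The lists, with 135 of the 8902 genes, held 15 of the 20 genes with the largest differences, 32 of the top 50 and 46 of the top 100. They were written with earlier results of these data known, so neither this ranking nor the share separated is independent support. Among the genes with a mean log2 value of at least 1 over the 8 libraries, which were 3250 without Alox12 and Alas2, 273 (8.40%) were separated higher and 13 (0.400%) lower, and 112 of the 135 platelet genes were kept by this limit. A gene that passes the limit only through the platelet-rich libraries has to differ between the sets, so the counts over all measured members are the ones given for the lists.

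Surface receptors had the highest share of separated genes. Of 36 genes on this list 29 were measured, 25 of them (86.2%) were separated higher, and the median difference was 2.68, against 3.16% of all genes. The mean over the list was 2.87 to 3.58 in the platelet-rich and 0.57 to 1.20 in the platelet-poor libraries. The largest difference belonged to Cd9, a tetraspanin abundant on platelets, which was at 8.14, 6.53, 6.37, 7.18 and 7.02 in control 3 and metformin 1, 3, 4 and 5, against 3.92, 2.25 and 1.35 in control 2, control 4 and metformin 2 (fitted difference 5.26, SE 0.51). Cd9 was also at 1.56 in control 1 and 5.32 in control 5.

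Clec1b and Gp9 were lowest in metformin 2. Clec1b, the podoplanin receptor CLEC-2, was at 5.99, 5.82, 5.23, 5.84 and 6.19 in the platelet-rich libraries and at 2.27, 0.64 and 0.12 in control 2, control 4 and metformin 2, with a fitted difference of 5.14 (SE 0.55). Gp9, a subunit of the von Willebrand factor receptor complex, was at 6.55, 5.54, 5.25, 5.86 and 6.30 against 2.64, 0.79 and 0.36, with a fitted difference of 5.13 (SE 0.57). The other subunits of that complex were separated in the same direction, by 3.33 for Gp1bb, 3.32 for Gp5 and 2.05 for Gp1ba. Gp1ba was the lowest of them in the platelet-rich libraries, at 1.88 to 2.44, and was at 0.12 to 0.37 in the platelet-poor.

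Integrins and their partners followed. Itgb3, the beta chain that pairs with Itga2b, differed by 3.63 and ranged from 3.22 to 4.65 in the platelet-rich and from 0.33 to 0.86 in the platelet-poor libraries. Itga6, a laminin receptor chain, differed by 3.72, and Itgb1, the beta chain of several collagen and laminin receptors, by 2.10. Itga6 was at 4.66 in control 1 and 4.38 in control 5, the libraries with heart transcripts, and so was not low wherever Itga2b was low. Treml1, a receptor stored in alpha granules, differed by 4.18 (4.32 to 5.10 against 0.12 to 1.93).

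Receptors for soluble agonists were separated at lower levels. P2ry12, the ADP receptor that clopidogrel and related drugs block, ranged from 3.01 to 3.67 in the platelet-rich and from 0.26 to 0.54 in the platelet-poor libraries, a difference of 3.05. P2rx1, an ATP-gated channel, differed by 2.88 and had the narrow range of 2.95 to 3.20 in the platelet-rich libraries. P2ry1, the other ADP receptor, differed by 1.0, the smallest separated difference of the list. Gp6, the collagen receptor, differed by 2.68, and F2rl2, a thrombin-activated receptor, by 1.57.

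The 4 measured receptors that were not separated were Fcer1g, Cd63, Pear1 and Jam3. Fcer1g, the signalling chain of Gp6 that myeloid cells also use, had a difference of 1.07 but overlapped, because control 2 was at 3.56 and the platelet-rich libraries at 2.91 to 3.69. Cd63, a tetraspanin of granule and lysosome membranes in many cells, had a difference of −0.23, Pear1 of 0.27 and Jam3 of −0.14. Pecam1, which endothelial cells and leukocytes share with platelets, was separated by 1.54, with 2.77 to 3.58 against 1.43 to 2.60.

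Granule proteins and the release machinery were divided. Of 29 genes on the list 23 were measured, 13 (56.5%) were separated higher, beside 3.16% of all genes, and the median difference was 1.64. Vwf, the adhesive protein that tethers platelets, was at 4.08, 3.77, 3.30, 3.92 and 4.36 in control 3 and metformin 1, 3, 4 and 5, against 0.91, 0.46 and 0.31 in control 2, control 4 and metformin 2, and its fitted difference was 3.47. Endothelial cells make it too, and Vwf was at 3.66 in control 1 and 3.96 in control 5, where the endothelial list had its highest means (1.98 and 1.30, against 0.24 to 0.47 in the other 8 libraries). Within the 8 libraries the endothelial list had a median difference of −0.02 and 0 of 16 genes separated, beside 3.16% of all genes. All 16 had a mean log2 value under 1 over these libraries, which left little room for a difference of 1. Plvap lay higher in the platelet-rich libraries without overlap (0.59 to 0.80 against 0.24 to 0.34).

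Clotting and matrix proteins of the granules were separated as well. Thbs1 (thrombospondin 1) differed by 3.34, with 3.17 to 4.08 against 0.28 to 0.68, F5 (clotting factor V) by 2.54, Mmrn1 (multimerin 1, which binds factor V) by 2.49 and F13a1 (the transglutaminase chain of factor XIII) by 1.64. Clu (clusterin) differed by 4.29, with 5.55 to 7.12 against 1.89 to 2.40. Srgn, the proteoglycan that packs granule contents in platelets and leukocytes, differed by 2.86, and control 2 reached 5.39, under the lowest platelet-rich value of 5.69. Tgfb1 differed by 1.70.

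Release factors with a role in membrane fusion were separated in part. Stx11, a syntaxin used by platelets and lymphocytes, differed by 3.79 (3.16 to 5.02 against 0.24 to 1.06), Rab27b, a granule GTPase, by 1.96 and Unc13d, a priming factor, by 1.10. Values of Stxbp2 (0.49), Vamp8 (0.04), Nbeal2 (0.11), Vps33b (−0.09) and Vipas39 (0.02) were not separated, although mutations of several of these genes are known to disturb platelet granules in people or mice. Ccl5, a chemokine of T and NK cells that is also stored in platelets, had the lowest difference of the 135 platelet genes, −1.74, with 2.51, 1.80, 3.31, 1.87 and 1.89 in control 3 and metformin 1, 3, 4 and 5 against 4.87, 3.17 and 4.15 in control 2, control 4 and metformin 2. Its sets overlapped through metformin 3 and control 4. The T cell list had a median difference of −0.43, and its part in the value of Ccl5 was not tested.

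Enzymes of platelet lipid mediators, which like Alox12 act on arachidonate or its products, were measured for few genes. Of 6 genes 5 were measured and 3 (60%) were separated higher, beside 3.16% of all genes. Ptgs1, the cyclooxygenase that aspirin blocks in platelets, was at 2.22, 2.07, 1.53, 2.02 and 2.04 in the platelet-rich libraries and at 0.59, 0.21 and 0.12 in control 2, control 4 and metformin 2, a difference of 1.81. Tbxas1, thromboxane synthase, differed by 1.65, with 2.18 to 2.49 against 0.51 to 0.94. Alox5ap, the partner of 5-lipoxygenase in leukocytes, differed by 2.94, and control 2 was at 4.62, near the lowest platelet-rich value of 4.98. Mgll (−0.56) and Ptges3 (−0.27), which many cells express, were not separated.

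Signalling genes were led by Gng11 and Nrgn. Of 40 genes 37 were measured, 15 (40.5%) were separated higher, beside 3.16% of all genes, and the median difference was 0.78. Gng11, a G protein gamma subunit, was at 7.64, 6.59, 6.32, 6.73 and 6.99 in control 3 and metformin 1, 3, 4 and 5 against 3.42, 1.34 and 0.92 in control 2, control 4 and metformin 2, a difference of 5.52. Nrgn (neurogranin), a calmodulin-binding protein, was at 8.66, 6.93, 7.18, 7.70 and 7.79 against 4.70, 2.54 and 1.50, a difference of 5.51. Plek (pleckstrin), the main protein kinase C substrate of platelets, differed by 4.32, with 4.13 to 6.64 against 0.99 to 2.35.

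The path from calcium to integrin activation was separated at Rasgrp2, Rap1b and Fermt3. Rasgrp2, the exchange factor that activates Rap1, differed by 3.28 (4.71 to 6.69 against 1.90 to 3.54), Rap1b by 2.43 (3.71 to 5.50 against 1.76 to 3.17) and Fermt3 (kindlin-3), which binds the integrin tail, by 3.43 (4.05 to 5.78 against 1.05 to 2.45). Rap1a, the paralog of Rap1b, had a difference of 0.34, with 3.93 to 4.20 against 3.59 to 3.90, and was not separated because the difference was under 1, although the sets did not overlap. Apbb1ip, an adaptor between Rap1 and talin, had a difference of −0.05. The regulators of G protein signalling Rgs18 and Rgs10 differed by 3.80 and 3.54. In the nitric oxide branch, Gucy1b1, Mrvi1 and Pde5a were separated by 1.77, 2.11 and 1.15, and Gucy1a1 had a difference of 0.45.

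Kinases and adaptors downstream of the collagen receptor, which lymphocytes and myeloid cells also use, were not separated. Syk had a difference of 0.63, Lat of 0.57, Fyn of 0.45, Lcp2 of 0.23, Vav1 of 0.11, Plcg2 of 0.06 and Btk of 0.33. Syk was at 2.98 in the platelet-poor control 4 and at 1.42 in the platelet-rich metformin 3. Lyn had a difference of 1.39 but its sets met at 2.04, the value of both metformin 3 and control 2, so it was not separated.

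Cytoskeletal genes held the highest levels of any platelet list. Of 30 genes, all measured, 16 (53.3%) were separated higher, beside 3.16% of all genes, and the median difference was 1.30. Tmsb4x (thymosin beta 4), which sequesters actin monomers in many blood cells, was at 11.17, 9.48, 9.22, 9.73 and 10.38 in control 3 and metformin 1, 3, 4 and 5 against 8.14, 6.79 and 4.77 in control 2, control 4 and metformin 2, a difference of 4.38. Tubb1, the beta tubulin of the platelet's marginal ring, was at 7.57, 5.69, 5.27, 6.20 and 5.56 against 1.82, 1.37 and 0.78, a difference of 5.39. Myl9, the myosin light chain of platelets and smooth muscle, differed by 5.86 (6.29 to 7.72 against 0.62 to 2.98) and was at 4.90 in control 1 and 4.18 in control 5.

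Other separated genes of the cytoskeleton list had differences of 4.52 for Parvb, 4.0 for Zyx, 3.93 for the tropomyosin gene Tpm4, 3.66 for Pdlim1, 3.34 for Tagln2, 2.23 for Ilk, 1.93 for Flna, 1.75 for Tln1, 1.56 for Lims1, 1.22 for Actn1 and 1.08 for Vcl. Several actin regulators that other blood cells share were not separated, with differences of 0.91 for Cfl1, 0.40 for Pfn1, 0.18 for Arpc1b and 0.14 for Was. Cap1 had a larger difference of 1.13 but overlapped, and Tmsb4x, described above, was separated. Myh9, the non-muscle myosin heavy chain of platelets, had a difference of 1.39 but overlapped, since control 4 was at 3.28 and metformin 5 at 2.73.

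Transcription factors of the megakaryocyte had the lowest share of separated genes among the 6 lists. Of 13 genes 11 were measured, 2 (18.2%) were separated higher, beside 3.16% of all genes, and the median difference was 0.53. Tal1 differed by 1.17 (1.13 to 2.04 against 0.43 to 0.95) and Gata2 by 1.13 (1.18 to 2.02 against 0.12 to 1.11). Nfe2, needed for platelet release and also present in erythroid cells, had no overlap (3.43 to 3.95 against 2.86 to 3.06) and a difference of 0.68. Gata1, shared with erythroid cells, had a difference of 0.31, Fli1 of 0.53, Runx1 of 0.58 and Zfpm1 of −0.63.

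**Figure D2:**
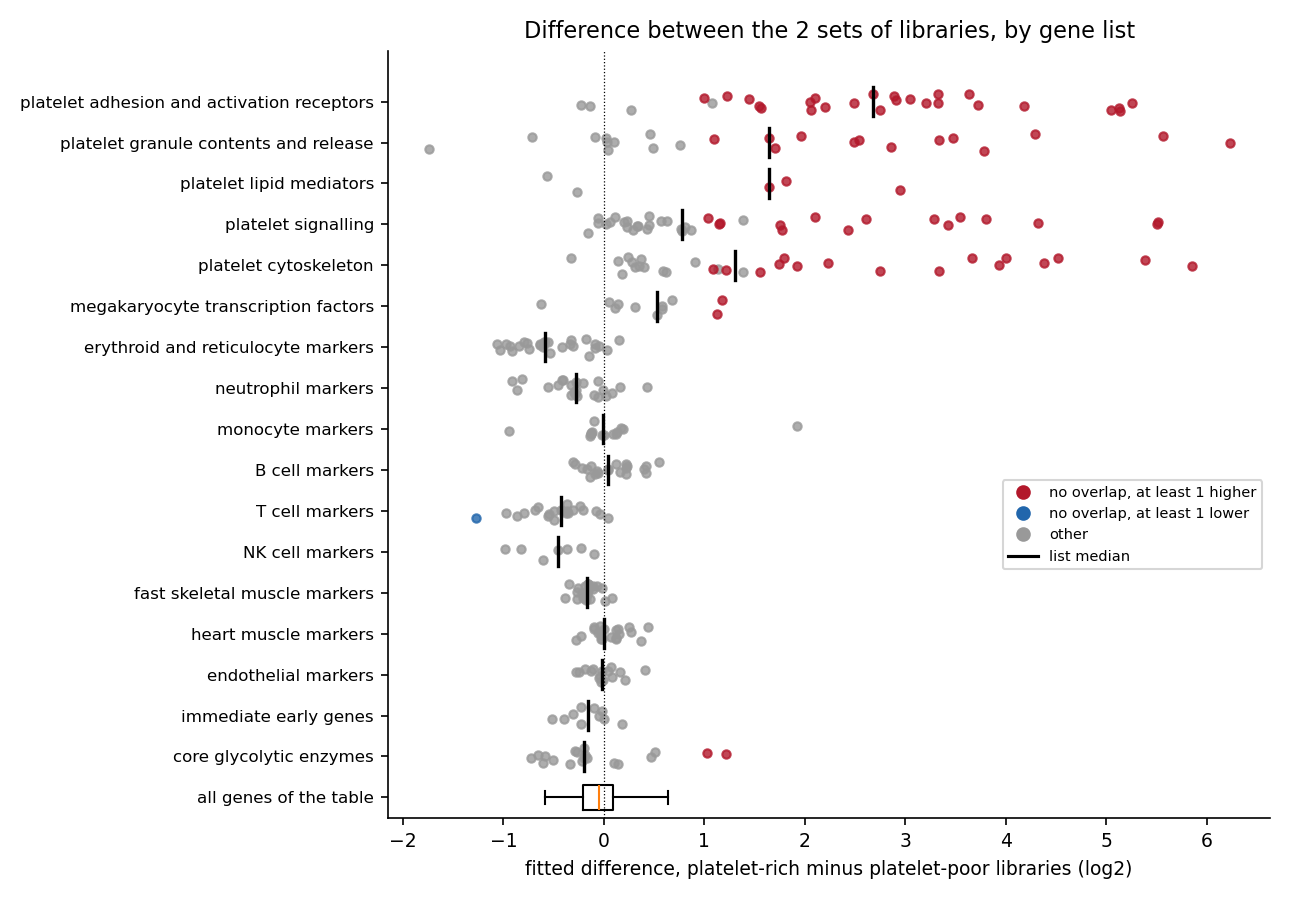
Fitted log2 difference between platelet-rich and platelet-poor libraries with treatment as a term (x axis) for each measured gene of the platelet lists and of other cell type lists (y axis); points are genes, coloured by whether the sets were separated, black bars are list medians, and the box for all genes spans the quartiles (−0.21 to 0.09) with whiskers at the 5th and 95th percentiles. Receptors have the highest median, 2.68, and erythroid markers the lowest, −0.58.

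Genes outside all lists that differed most were led by Ctla2a, which encodes an inhibitor of cysteine proteases. Ctla2a was at 9.22, 8.09, 7.64, 8.06 and 8.53 in control 3 and metformin 1, 3, 4 and 5, against 4.86, 3.03 and 1.20 in control 2, control 4 and metformin 2, a difference of 6.15, and its close paralog Ctla2b had a difference of 5.04, so reads may be shared between them. The others were Tsc22d1, a TGF-beta stimulated transcription regulator (4.90), the histone H4 gene Hist1h4n (4.85), Gas2l1, a linker of actin and microtubules (4.26), Dap (4.07), Pttg1ip (3.86), the matrix protein gene Ecm1 (3.85), the mitochondrial aldehyde dehydrogenase Aldh2 (3.80) and the 14-3-3 protein gene Ywhah (3.52). Ywhah was at 5.50 to 7.67 in the platelet-rich and at 3.06 to 3.36 in the platelet-poor libraries. Hist1h4n was the most uneven of these within the rich set, at 7.42 in control 3 and 4.21 in metformin 1.

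Genes with lower values in the platelet-rich libraries differed by much less. H2afj, a histone H2A variant, was at 3.54, 3.11, 3.84, 3.48 and 3.97 in control 3 and metformin 1, 3, 4 and 5, against 5.33, 4.79 and 4.55 in control 2, control 4 and metformin 2, a difference of −1.21. Psme2, a proteasome activator subunit, had −1.19, the tetraspanin Cd82 −1.17, the mitochondrial thioredoxin reductase Txnrd2 −1.14, Snx15 −1.12, Ube2f −1.10, Vangl1 −1.08, Pet100 −1.07, the ribosomal protein gene Rpl10 −1.04 and Jpt1 −1.02. Of 77 cytosolic ribosomal protein genes 1 was separated lower and 12 lay below without overlap, beside 3.55% of all genes, and the median was −0.32. After centring every library on these ribosomal genes, 0 genes were separated lower. This centring raises the fitted difference of every gene by the same amount, and the median of the genes kept moved from −0.14 to 0.23. The lower calls therefore depend on the scaling.

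**Figure D3:**
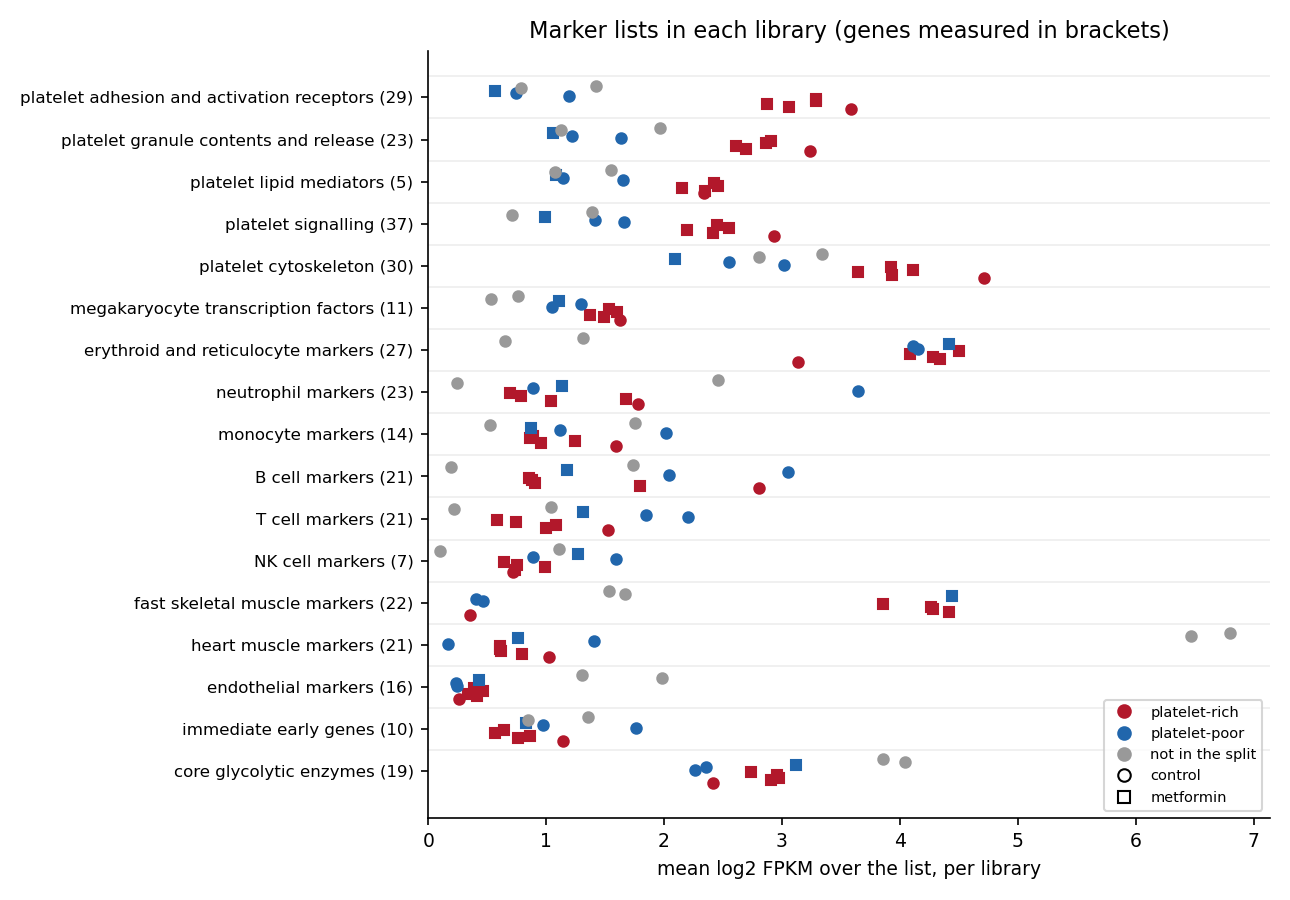
Mean deposited log2 FPKM over the measured genes of each list (x axis) in each library (points; colours give the set, circles control and squares metformin), with the number of genes in brackets on the y axis. Of the lists drawn, only those of platelet and megakaryocyte genes place all 5 platelet-rich libraries above all 3 platelet-poor libraries.

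Markers of other blood cells did not divide the libraries as platelet genes did. None of 27 erythroid, 23 neutrophil, 14 monocyte, 21 B cell or 7 NK cell genes was separated in either direction. Over all genes 3.16% were separated higher and 0.157% lower, so a count of 0 in lists this short is near that share. Only 3 of the monocyte and 2 of the NK cell genes had a mean log2 value of at least 1, which left the others little room for a difference of 1. The median differences of the lists, in the same order, were −0.58, −0.28, −0.01, 0.05 and −0.46. The erythroid mean was lowest in control 3, at 3.14, and lay between 4.08 and 4.50 in the other 7 libraries of the split. Control 2 carried the most neutrophil RNA, with a list mean of 3.64 against 0.70 to 1.78 in the other 7. The part of these shifts in single platelet values was not tested.

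T cell transcripts leaned the other way. Of 21 T cell genes 1 was separated lower and 8 lay below without overlap, beside 3.55% of all genes, and the list means were 0.58 to 1.53 in the platelet-rich and 1.31 to 2.21 in the platelet-poor libraries, which overlap. Lck, the kinase of the T cell receptor, was at 1.71, 1.20, 1.43, 1.33 and 1.38 in control 3 and metformin 1, 3, 4 and 5 against 3.07, 2.48 and 2.77 in control 2, control 4 and metformin 2, a difference of −1.27. Trbc2 had −0.97 and Cd3g −0.86. Lyz2, the lysozyme of myeloid cells, had the largest difference of the monocyte list, 1.92, but overlapped, with 6.88 in control 2 and 5.23 in metformin 4.

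Core glycolytic enzymes, which the study followed in blood, were mostly not separated. Of 19 genes 2 (10.5%) were separated higher, beside 3.16% of all genes. Hk1, the main hexokinase of red blood cells, differed by 1.22 (2.32 to 3.09 against 1.57 to 1.62) and Pkm, pyruvate kinase M, by 1.03. Pfkp, the phosphofructokinase form of platelets by name, lay lower in the platelet-rich libraries, at 1.0, 0.60, 1.49, 0.98 and 1.08 against 1.76, 1.94 and 1.66, a difference of −0.73. The sets of Pfkp did not overlap, but the difference was under the limit of 1. Gapdh had a difference of 0.10, Pfkl of −0.19 and Pfkm of −0.33.

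Among the separated platelet genes, control 3 was most often the highest and metformin 2 most often the lowest library. Over the 74 genes, control 3 was the highest of the 8 libraries in 59 (79.7%) and metformin 2 the lowest in 52 (70.3%), beside 67.6% and 52% of all 281 separated genes. The median offset from a gene's mean over the 8 libraries was 1.47 in control 3, 0.96 in metformin 4, 0.92 in metformin 5, 0.71 in metformin 1 and 0.45 in metformin 3, then −1.16 in control 2, −1.57 in control 4 and −1.93 in metformin 2. Within the platelet-poor set, control 2 was the highest of the 3 libraries in 59 genes (79.7%, beside 63% of all separated genes). The gap between the lowest platelet-rich and the highest platelet-poor value had a median of 1.50 over the 74 genes. Over all 273 genes kept that were separated higher it had a median of 1.01. These medians rest on unlike bases, since only 70 of the 74 genes were kept.

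Outside the split, control 5 was between the sets for 29 of the 74 genes (39.2%) and below every platelet-rich library for 70 (94.6%), and control 1 was below every platelet-rich library for 69 (93.2%). Over all 281 separated genes the shares were 34.5%, 94% and 93.6%. Their median offsets were −1.0 in control 5 and −1.59 in control 1. Both libraries carried heart transcripts (mean over the heart list 6.80 in control 5 and 6.47 in control 1, and 0.17 to 1.41 elsewhere), and platelet genes that heart or vessel cells share, such as Gsn (6.47 in control 5 and 6.01 in control 1), were high there.

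Each treatment group held libraries of both sets, so a gene that separates the sets also separates the libraries inside each group by the way it was chosen, and only the sizes are descriptive. Among the 5 metformin libraries, metformin 2 was lower than all 4 others by at least 1 in 63 of the 74 genes (85.1%, beside 73.3% of all separated genes), and among the 3 controls of the split, control 3 was above control 2 and control 4 by at least 1 in 68 (91.9%, beside 88.6%). Each of these contrasts rests on 1 library on one side (metformin 2 or control 3), so they have no replicate check.

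Treatment itself was compared over the same 8 libraries, 3 control and 5 metformin. With limma and Benjamini-Hochberg adjustment, 164 of 3252 genes (5.04%) rose and 318 (9.78%) fell with metformin. After centring on the ribosomal protein genes 1477 rose and 86 fell, so the balance of directions depends on the scaling. These reference genes themselves differed by treatment without centring. Of the 76 kept 0 rose and 22 fell with metformin, and their median log2 fold change was −0.63. Their mean was 4.70 to 5.34 with metformin and 5.49 to 5.87 in control 2, 3 and 4, so this centring raises every gene with metformin. The genes that separate the sets have high and low libraries in both treatment groups by the way they were chosen, so their spread within a group is wide and their results in this comparison are a description. Of the 70 separated platelet genes kept, 0 passed the adjusted threshold of 0.05 and 0 had an unadjusted p under 0.05, where 11.6% of all genes, which were not chosen in this way, were higher and 17.1% lower at that level. The lowest unadjusted p was 0.0932 by limma, although 63 had a positive log2 fold change. The fold changes ranged from −0.33 to 1.67 with standard errors of 0.36 to 1.80. Pf4 had a log2 fold change of 1.26 (SE 1.64, adjusted p = 0.62) and Ppbp of 1.13 (SE 1.80, adjusted p = 0.69), so the differences were smaller than their standard errors. Without control 3 all controls left are platelet-poor, and without metformin 2 all metformin libraries left are platelet-rich, so treatment then goes partly with the split. The median log2 fold change of the 70 genes was 0.73 in the main fit, 1.59 without control 3 and 1.14 without metformin 2. By limma, Gsn passed without control 3 (1.59, adjusted p = 0.035) and F11r without metformin 2 (1.02, adjusted p = 0.024), which is a description only. F11r also passed with ribosomal centring (1.42, adjusted p = 0.047 by limma).

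The platelet list genes kept were counted in the same comparison. Of 112 genes 3 (2.68%) rose and 5 (4.46%) fell, beside 5.04% and 9.78% of all genes. The 112 include the 70 separated genes, of which 0 passed and whose spread is wide by the way they were chosen. These shares therefore cannot be set against those of all genes, and every call belonged to a member that was not separated. After ribosomal centring 14 of the 112 rose and 1 fell, beside 1477 and 86 of all 3252 genes. Without centring, those that rose were the tropomyosin Tpm1 (2.17, adjusted p = 0.0013 by limma), Tuba8 (0.80) and Gata1 (0.86). Tpm1 is also a striated muscle gene, and it was at 6.32 to 6.82 in the metformin libraries, 3.91 to 4.94 in control 2, 3 and 4, and 9.22 to 10.38 in control 5 and control 1. All 22 measured fast muscle markers rose with metformin in the same comparison, and their part in the change of Tpm1 was not tested. Those that fell were the actin regulators Arpc1b (−1.68), Pfn1 (−1.45), Vasp (−1.0) and Was (−0.68) and the exchange factor Vav1 (−0.67). Leukocytes use these genes as well, and 11 of 14 B cell and 9 of 11 T cell genes kept fell in this comparison. Their part in these falls was not tested. The falls of Vav1 and Was became values of 0.035 and 0.022 after ribosomal centring, which moved the median treatment difference from 0.06 to 0.77.

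The treatment comparison was repeated with the set as a covariate. The covariate comes from a platelet transcript, so p-values of platelet genes in this fit are not independent of the split. In this fit 415 genes (12.8%) rose and 417 (12.8%) fell with metformin (1210 and 122 after ribosomal centring), and among the 112 platelet genes kept 4 (3.57%) rose and 33 (29.5%) fell. Of the 70 separated genes 66 had a negative fold change, and 20 fell, among them Ppbp (−1.78, SE 0.38, adjusted p = 0.0085), Tmsb4x (−2.03, SE 0.40, adjusted p = 0.0059) and Srgn (−1.67, SE 0.32, adjusted p = 0.0056). Pf4 (−1.33, adjusted p = 0.063) and Itga2b (−0.86, adjusted p = 0.13) did not pass the limma threshold. In this design the covariate sets control 3 alone against 4 metformin libraries and control 2 and 4 against metformin 2 alone. Without control 3, 5 platelet genes fell (Tmsb4x, Srgn, Pfn1, Arpc1b and Cap1), of which 2 were separated between the sets. Over all 3252 genes 47 fell in that fit, beside 417 in the main fit. Without metformin 2, 14 platelet genes fell, of which 8 were separated, beside 155 of all 3252 genes. After ribosomal centring 12 of the 112 platelet genes fell and 10 rose, beside 122 and 1210 of all 3252 genes.

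**Figure D4:**
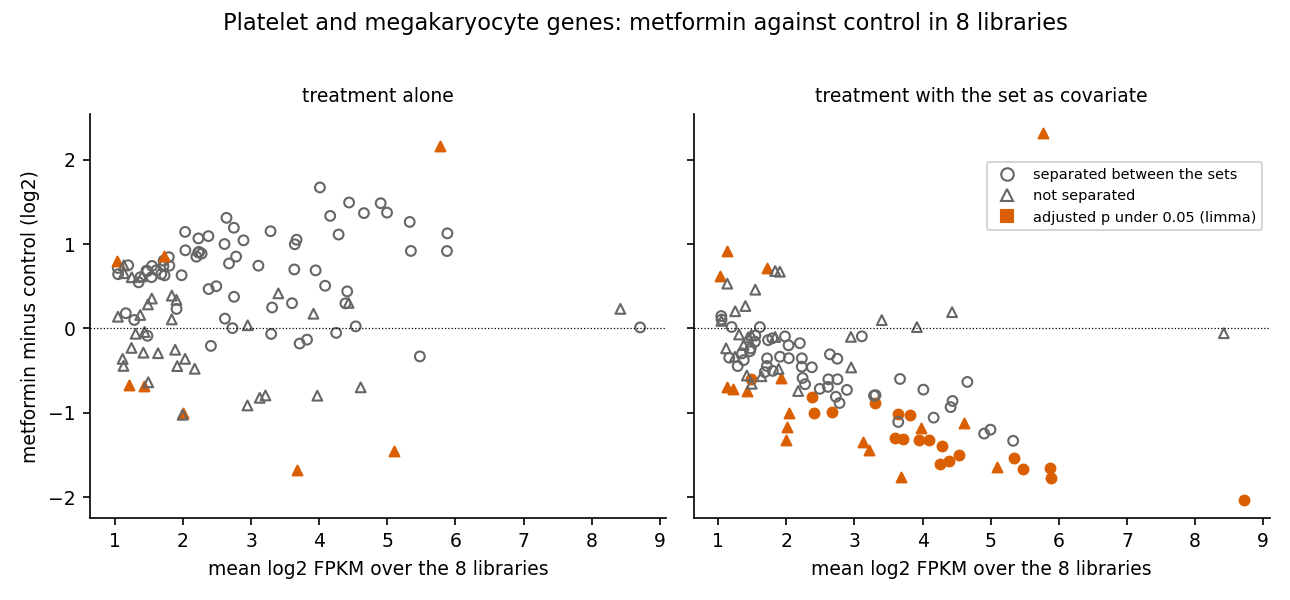
Log2 difference between metformin and control libraries (y axis) against the mean log2 FPKM over the 8 libraries (x axis) for the 112 platelet and megakaryocyte genes kept, with treatment alone (left) and with the platelet set as covariate (right); circles are genes separated between the sets, triangles other list members, and filled orange symbols passed an adjusted p of 0.05 by limma. On the left 0 of 70 circles are filled, and on the right 20 are, all below 0.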

How the data were processed

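Blood RNA (5 control and 5 metformin libraries) was sequenced after TRIzol extraction and Nextera XT library preparation, a kit that does not mark strand, so overlapping antisense genes cannot be told apart. Paired-end reads were mapped by the authors with TopHat (v2.0.9, index from Bowtie v2.0.6), and their processing notes name Cufflinks and GRCm38. The deposited values are log2 FPKM (named RPKM in the methods) with an offset that is not stated, and their sorted values nearly coincide between libraries, as after quantile normalization. Counts were not used and the depth is unknown, so there are no counting intervals. Of the identifiers 8897 matched the GRCm38 annotation and 7 did not.

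Libraries were split by the deposited values of Alas2 (at least 12) and Alox12 (at 3). The members, gene lists and the rule for named genes were chosen with earlier results of these data known. The rule names the markers of the split, the genes with the largest differences and highest levels of each platelet list, the 10 largest separated differences in each direction outside the lists, the 3 largest of each other list, 4 glycolytic genes and each platelet gene past the treatment threshold. Other platelet list members were named after their values were seen. The values of 1 list member are not reported here. Genes with a mean log2 value of at least 1 over the 8 libraries were kept (3252 of 8904). Differences between the sets were fitted with a treatment term by limma 3.58.1 in R 4.3.3, without p-values. Metformin was compared with control by limma (eBayes with trend, Benjamini-Hochberg, threshold 0.05), with and without the set as covariate. The fits were tested on simulated data. Alternatives were other filters, limits, offsets and scalings, other variance estimates, the replicate number as a block, all 10 libraries and leaving out each library. Motifs were searched in Python 3.11.15.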

Additional observations from a re-analysis of the deposited data

Results flagged for a closer look

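Within the 5 metformin libraries, metformin 2 stood far below the other 4 in platelet transcripts. The gap between the lowest library and its nearest neighbour, as a share of the whole range of the group, was 0.846 for the mean of the receptor list, 0.842 for granule genes, 0.773 for lipid mediator genes, 0.776 for signalling genes and 0.77 for cytoskeletal genes. For single genes it was 0.796 for Alox12, which defined the split, 0.866 for Pf4, 0.876 for Ppbp and 0.758 for Itga2b. Dixon's 95% critical value for 5 samples is 0.71, and chance passes it in about 1 of 20 groups. Of 104 named genes checked 41 passed it, and the 26 of these on the platelet lists, Alox12 included, all had metformin 2 low. Over all genes tested in this way, 727 of 8902 (8.17%) passed it in the metformin group. These gaps describe the same contrast as the split and give it no independent support.

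The mean of the monocyte markers was set apart by a high value in metformin 3, with a gap of 0.745 of the range (1.24 against 0.86 to 0.96 in the other 4 metformin libraries). The control group of the split has 3 libraries and was not checked in this way.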

How the results depend on the processing

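Of the 70 platelet genes separated and kept, 67 passed without the treatment term, 68 without metformin 2 and inside the controls and 50 at a limit of 2. Leaving out a library or lowering the limit cannot make the sets of a chosen gene overlap. Centring shifts each library by its own amount, so it can change an overlap. It moves the fitted differences of all genes alike, up with ribosomal centring and little with the median (median −0.14 to −0.16). That 70 passed under these settings is no sign of stability.

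The 273 genes separated higher became 146 at a mean of at least 2 and 116 at a difference of at least 2, and 258 to 292 without single libraries. The 13 separated lower became 7 without the treatment term, 30 with the offset of 0.1, 0 with ribosomal centring, 113 at a limit of 0.5, 0 at a limit of 2, 59 inside the metformin libraries and 188 inside the controls, and 10 to 37 without single libraries (37 without control 2, 35 without metformin 2).

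For treatment, the 164 genes that rose became 278 with no filter, 53 at a mean of at least 2, 1477 with ribosomal centring and 109 to 153 without single libraries (109 without control 2). The 318 that fell became 498, 115 and 86 under the same settings, 92 over all 10 libraries and 192 to 337 without single libraries (192 without metformin 4, 204 without metformin 5). Vav1 and Was reversed with ribosomal centring, to 0.035 and 0.022. With the set as covariate, the 415 that rose became 249 at a mean of at least 2, 1210 with ribosomal centring and 83 to 448 without single libraries (83 without control 3, 258 without metformin 2), and the 417 that fell became 194, 122 and 47 to 464 (47 without control 3, 155 without metformin 2). Where control 3 or metformin 2 is left out, 1 arm of a set is empty. The cause of the other changes was not tested. Over the single named genes and all alternatives, the call was kept in 1479 cases for treatment (55 weaker, 19 stronger). With the covariate it was kept in 1216 cases (89 weaker, 64 stronger). Direction was compared only where a gene passed the threshold in the main fit or in the alternative. Of the differences between sets, 45 moved by more than the larger SD of the sets while 1603 did not, and signs of genes not separated were not compared. Other filters and limits leave the fitted difference of a gene unchanged, so part of the 1603 was fixed in advance and is no sign of stability.

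Replicate numbers 2, 3 and 4 occur in both groups of the 8 libraries. The deviations of libraries that share a number correlated across genes at 0.43, 0.18 and −0.47, so the numbers were not taken as pairs. With the replicate number as a block over these 6 libraries, 61 genes rose and 44 fell, and of the platelet genes 0 rose and 0 fell.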

Other observations

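Histone genes, a family picked out after its values were seen, also lay higher in the platelet-rich libraries. Of 18 measured genes with Hist symbols 10 (55.6%) were separated higher and 0 lower, with a median difference of 1.24, beside 3.16% separated higher among all genes. Hist1h2bc was at 7.45, 6.10, 5.96, 6.40 and 6.91 in control 3 and metformin 1, 3, 4 and 5, against 4.51, 4.29 and 3.85 in control 2, control 4 and metformin 2. Hist1h1c, a linker histone, differed by 2.62. Histone genes are near-identical in sequence, so reads may be shared between them.

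Further genes were noted after their values were seen. Slc6a4, the transporter by which platelets take up serotonin, was at 3.28, 2.82, 2.54, 3.02 and 3.04 against 0.67, 0.31 and 0.31 in the same order, a difference of 2.66. Angpt1, a vascular growth factor that platelets carry, differed by 1.53. B2m, the light chain of class I histocompatibility molecules in all nucleated cells and platelets, differed by 2.40, with 7.60 to 8.77 against 5.47 to 6.64.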
